A study of Mus musculus with 24 samples.

Results

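Microglia sorted from mouse brain slices were compared after the slices had taken up tumour exosomes from knockout donors or from wild-type donors. The libraries were chosen by their labels: 3 microglia libraries after WT exosomes, 3 after KO1 exosomes and 3 after KO2 exosomes, 9 of the 24 samples of the series. Each group holds a library with the letter A, one with B and one with C, so that 6 knockout libraries could be set against 3 WT libraries and each knockout library against the WT library of its own letter. All 13950 genes that varied over the microglia libraries were tested, of 20555 in the table.

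Brain slices were exposed for 2 days to exosomes marked with the membrane dye PKH67, at 5 µg per slice, or to PBS. The labels call the exosome donors "wild type", "knock out 1" and "knock out 2". The title of the series names CEMIP, a hyaluronan-binding protein, but the labels name neither the knocked-out gene of a library nor the donor cells, and the knockouts are in the exosome donors, not in the mouse tissue. The labels give no strain, age or sex of the mice and do not say whether a letter stands for an animal, a culture or a day, so the p-values below measure the spread between these libraries. The outer ring of each slice was cut out and digested with Dispase and collagenase, myelin was removed, and live CD45+, CD11b low, CD49d low cells were sorted. All microglia libraries, the PBS ones included, are labelled as exosome-positive. Of the 12 labelled microglia samples 11 were analysed: PBS A and PBS B entered the fit as a further group, and PBS C was not analysed here.

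Microglia are the resident macrophages of the brain. They take up vesicles and debris, and when they meet microbial products, cytokines or damage they switch on the transcription factor NF-kB and its targets, among them the chemokines that recruit neutrophils and lymphocytes, interleukin 1 and tumour necrosis factor. Type I interferon drives a second programme through STAT and IRF factors, and a further set of genes, called disease-associated, comes on in microglia that clear lipid and debris. CEMIP takes part in the breakdown of hyaluronan, a matrix sugar that microglia sense through CD44 and Toll-like receptors.

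The deposited values are log2 values of a variance-stabilising transform. It squeezes low values: a gene with 10 normalised counts lies 0.4 above the floor, one with 100 counts 0.579, one with 1000 counts 1.15 and one with 10000 counts 3.22. Differences and their 95% intervals are therefore given in these deposited log2 units, and levels are given as normalised counts read back from them, in the order of letters A, B and C. A level of 0 means that the gene is listed at the floor. The read depth of the libraries is unknown, and the normalised counts summed to between 27.1 M and 29.5 M per library.

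Taken without regard to the letters, the library measures did not set WT and knockout apart. WT libraries had 10582 ± 170 genes above the floor (SD, n = 3) and knockout libraries 10758 ± 415 (SD, n = 6). The 10 most abundant genes took 16.1% to 20.6% of the counts in WT libraries and 16.2% to 20.7% in knockout libraries. The total followed the letter, with 27.1 M to 27.2 M in C libraries and 28.5 M to 29.5 M in B libraries given exosomes. A difference within letters was not tested for these measures. Exact permutation tests, two-sided over the 84 splits without pairing by letter, gave p = 0.476 for the number of genes, 1 for the share and 0.643 for the total. Benjamini-Hochberg adjustment over these 3 tests gave 0.965, 1 and 0.965, and the smallest p the design allows is 0.0238.

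The label of microglia was only partly borne out by the markers. Over the 9 libraries given exosomes, the summed level of 16 microglial markers was 34619 to 45679 counts in WT libraries and 35797 to 43940 in knockout libraries, and 9 to 12 of the 16 reached 100 counts in a library. P2ry12, the purine receptor that defines resting microglia, was listed at 0 in all libraries but KO1 B, with 10.9 counts, and Gpr34 in all but KO2 B and KO2 C. Tmem119 ranged from 0 to 186 counts and Cx3cr1 from 0 to 156. Siglech, also among the 16, was present in all 9 libraries, at 261 to 1000 counts. Of the genes behind the sort, Ptprc (CD45) was at 1733 to 3973 counts, Itga4 (CD49d) at 26.5 to 100 and Pecam1 (CD31) at 0.75 to 283. Itgam (CD11b) was at 2157, 2990 and 429 counts after WT exosomes.

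Markers of other cells were present in both groups. Border-associated macrophage markers summed to 3513 to 11328 counts in WT libraries and 2721 to 12663 in knockout libraries. Endothelial markers summed to 4652 to 5277 and 4486 to 7082 counts, oligodendrocyte markers to 4227 to 7087 and 3201 to 9194, and astrocyte markers to 1460 to 2142 and 513 to 2184. Monocyte and neutrophil markers stayed at 64.1 to 683 counts in WT and 83.6 to 393 in knockout libraries. Choroid plexus markers reached 10509 counts in KO2 B and 1047 or less in the other 8 libraries given exosomes, and pericyte markers reached 1118 in KO1 A against 90.7 to 146 in WT. By single genes, 10 of 10 choroid plexus markers had a higher knockout mean (median difference 0.11) and 7 of 7 pericyte markers (0.056), and of 11 astrocyte markers 2 were higher and 7 lower (-0.12). The part of these cells in the results below was not tested.

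The libraries fell apart by letter more than by exosome donor. On the first principal component, with 34.8% of the variance, the 3 C libraries lay between -13.2 and -12.0, the 3 B libraries between -0.2 and 3.8 and the 3 A libraries between 7.4 and 11.9. In 689 genes, 4.94% of those tested, all C libraries lay above or below all 6 others. The number was 567 (4.06%) for the A libraries, 374 (2.68%) for the B libraries and 205 (1.47%) for the 3 WT libraries. The C libraries were low in immune response genes: all 28 tested genes of a type I interferon list had a lower mean in C than in A and B, with a median difference of -0.69, and so did 16 of 17 chemokines, with a median of -0.94. They were higher in 33 of 38 ribosomal protein genes, with a median of 0.20. What the letter stands for cannot be told from the labels, and each comparison below is therefore also given within letters.

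**Figure D1:**
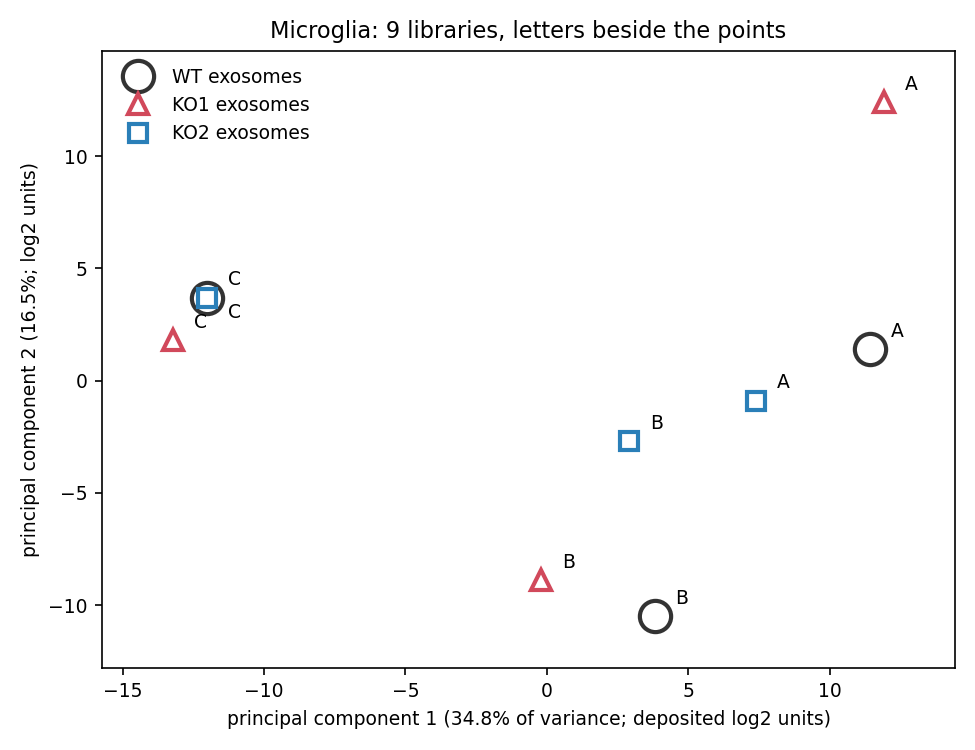
First (horizontal, 34.8% of variance) and second (vertical, 16.5%) principal components of the 9 microglia libraries, in deposited log2 units. Circles are WT, triangles KO1 and squares KO2 exosomes, with the letter beside each point; the 3 C libraries sit together at the left whatever the exosomes, between -13.2 and -12.0.

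No gene passed the test between knockout and WT exosomes. With limma and Benjamini-Hochberg adjustment, 0 of 13950 genes (0%) passed an adjusted p of 0.05, and the lowest adjusted p was 0.553. At an unadjusted p under 0.05 there were 437 genes (3.13%), 222 higher (1.59%) and 215 lower (1.54%) after knockout exosomes. With the letter as a block the counts were 0 (0%) and 526 genes (3.77%). Leaving out 1 library at a time gave 0 to 9 genes: 9 without WT C, 7 without WT B, 4 without KO1 A, 3 without WT A and 1 each without KO1 C and KO2 B. Without all C libraries, a setting chosen after seeing the data, 29 genes (0.208%) passed, 13 higher and 16 lower, and 0 (0%) with the letter as a block. The knockout mean was above WT in 7144 genes (51.2%) and below it in 6611 (47.4%), and the median difference was 0.0042.

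These data bound the difference rather than place it at 0. The 95% interval of a gene reached a median of 0.281 log2 units to either side of its difference, or 0.294 among the 4472 genes with a mean of at least 1000 counts, while the median size of a difference was 0.0846. On the squeezed scale such a width can hold a large ratio of counts. For Cep57 a difference of 0.30 went with a knockout mean 3.05 times the WT mean. Some abundant genes had far wider intervals, such as Ccl5 with -3.33 to 2.10. All 6 knockout libraries lay above all 3 WT libraries in 100 genes (0.717%) and below them in 105 (0.753%). Within letters, all 6 knockout libraries lay above their own WT library in 342 genes (2.45%) and below it in 378 (2.71%).

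**Figure D2:**
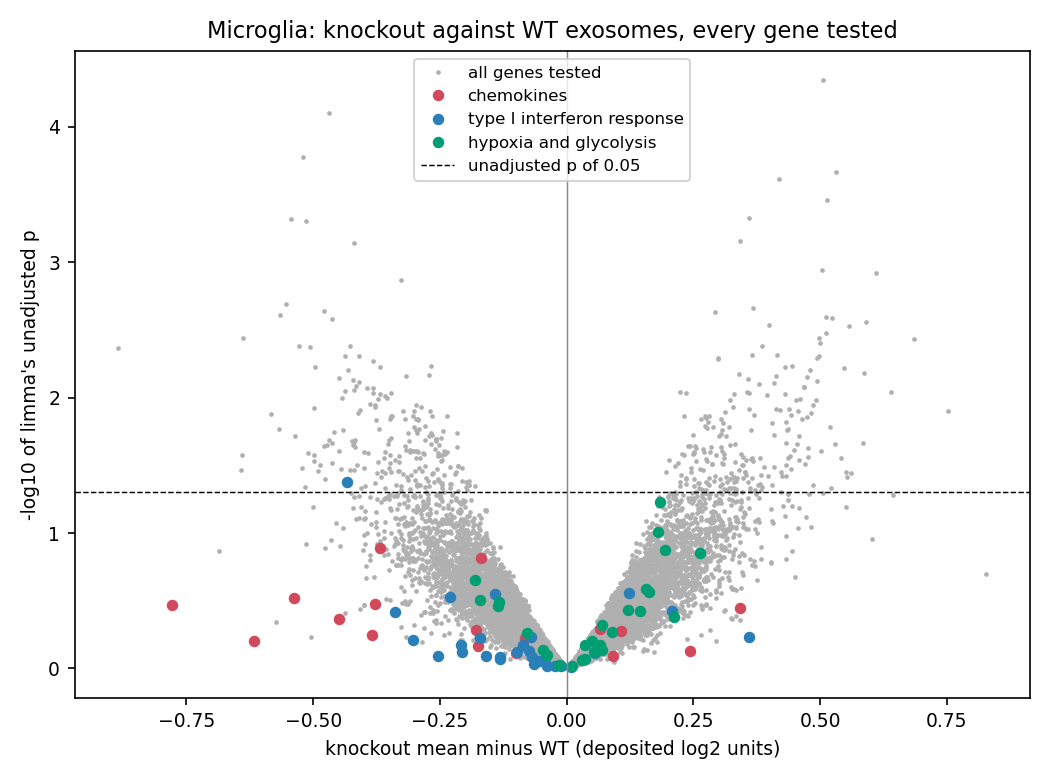
Difference between knockout mean and WT (horizontal, deposited log2 units) against -log10 of limma's unadjusted p (vertical) for the 13950 genes tested, with chemokines in red, type I interferon response genes in blue and hypoxia and glycolysis genes in green; the dashed line marks an unadjusted p of 0.05. No gene passed after adjustment, and chemokines hold large negative differences with small values on the vertical axis.

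The genes named next had the smallest unadjusted p among those with a mean of at least 100 counts, 12 in each direction, and none passed after adjustment. Because they were chosen by this p, their unadjusted intervals leave out 0 by the choice itself and give no separate support. Hdac2, a histone deacetylase (gene 15182, GRCm38.p6 chr10:36974297-37001889), led the higher genes apart from Atp10a, which is described with the 2 knockouts below. Its levels were 2159, 931 and 1920 counts after WT exosomes, 3445, 3770 and 3387 after KO1 exosomes and 2921, 3056 and 2411 after KO2 exosomes. All 6 knockout libraries were above all WT libraries, with WT B the lowest. The mean was 1670 ± 651 (SD, n = 3) in WT and 3165 ± 476 (SD, n = 6) in knockout libraries, 1.9 times as high, and the difference was 0.50 (95% interval 0.25 to 0.76; limma, adjusted p = 0.997).

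Itgb1bp1, which binds the tail of beta 1 integrin and holds integrins inactive (chr12:21267246-21286292), was nearly absent after WT exosomes. It had 90.5, 0 and 10.3 counts in WT libraries, 505, 254 and 315 in KO1 libraries and 802, 171 and 607 in KO2 libraries. The groups did not overlap, and the difference was 0.51 (0.21 to 0.82). Mdm4, an inhibitor of p53 (chr1:132986105-133030587), had 93.7, 245 and 646 counts in WT, 411, 1226 and 1618 in KO1 and 1099, 1485 and 1656 in KO2 libraries. It was higher within every letter, but KO1 A lay below WT C, so the groups overlapped. The difference was 0.50 (0.20 to 0.80).

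Among the other higher genes, Atp6v0a2, a subunit of the proton pump of lysosomes and endosomes, had 3930, 3583 and 3177 counts in WT, 5277, 6257 and 5360 in KO1 and 5092, 4761 and 3998 in KO2 libraries. All knockout libraries were above all WT libraries, and the knockout mean was 1.44 times the WT mean. Cep57, a centrosome protein, was 3.05 times as high in the knockout mean, with 228, 215 and 265 counts in WT, 965, 1075 and 733 in KO1 and 368, 607 and 566 in KO2 libraries. Its groups did not overlap either, and the KO1 libraries were the highest.

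U2surp is a component of the splicing machinery (gene 67958, chr9:95456894-95511996). Among the lower genes with a mean of at least 100 counts it had the smallest unadjusted p in limma, 0.000723. Its levels were 1091, 940 and 963 counts after WT exosomes, 300, 212 and 226 after KO1 exosomes and 179, 490 and 258 after KO2 exosomes. The WT libraries were tight and lay above all knockout libraries, of which KO2 B came nearest. The mean was 998 ± 81.6 (SD, n = 3) in WT and 277 ± 112 (SD, n = 6) in knockout libraries, a ratio of 0.278, and the difference was -0.42 (-0.62 to -0.22; limma, adjusted p = 0.917).

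Ap3d1, the delta subunit of the AP-3 adaptor that sorts cargo to lysosomes (chr10:80706956-80742303), had 6862, 6044 and 6556 counts in WT, 2211, 3049 and 4700 in KO1 and 5084, 3940 and 4841 in KO2 libraries. No knockout library reached the lowest WT library, and the difference was -0.55 (-0.86 to -0.25). Fermt3, kindlin-3, which activates integrins in blood cells (chr19:6998958-7019469), had 6573, 5964 and 5756 counts in WT, 4853, 4861 and 3828 in KO1 and 4670, 5052 and 3467 in KO2 libraries. The groups did not overlap, with means of 6098 ± 425 (SD, n = 3) and 4455 ± 647 (SD, n = 6) and a difference of -0.35 (-0.59 to -0.10). Me1, a source of cytosolic NADPH, had 1131, 2091 and 1478 counts in WT, 481, 704 and 926 in KO1 and 775, 363 and 799 in KO2 libraries, again with no overlap.

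Myo5a, a motor that carries vesicles along actin, had the lowest fitted difference of the named genes, -0.88 (-1.43 to -0.34). Its levels were 376, 2037 and 3643 counts in WT, 0, 24.2 and 550 in KO1 and 133, 373 and 346 in KO2 libraries. Every knockout library was below the WT library of its letter, but the WT libraries themselves spanned from 376 to 3643 counts and KO1 C overlapped WT A. Rab43, a small GTPase of Golgi traffic, was not among those 12 and is named for its same direction in all within-letter comparisons. It had 5113, 6436 and 4270 counts in WT, 2715, 4667 and 2466 in KO1 and 3312, 4575 and 2380 in KO2 libraries, lower within all letters, with KO1 B above WT C. Its difference was -0.47, with an unadjusted p of 0.0204 in limma, or 0.000363 when the letter was a block. The second p rests on the within-letter differences for which Rab43 was named, so it gives no separate support. No gene passed after adjustment in either fit.

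**Figure D3:**
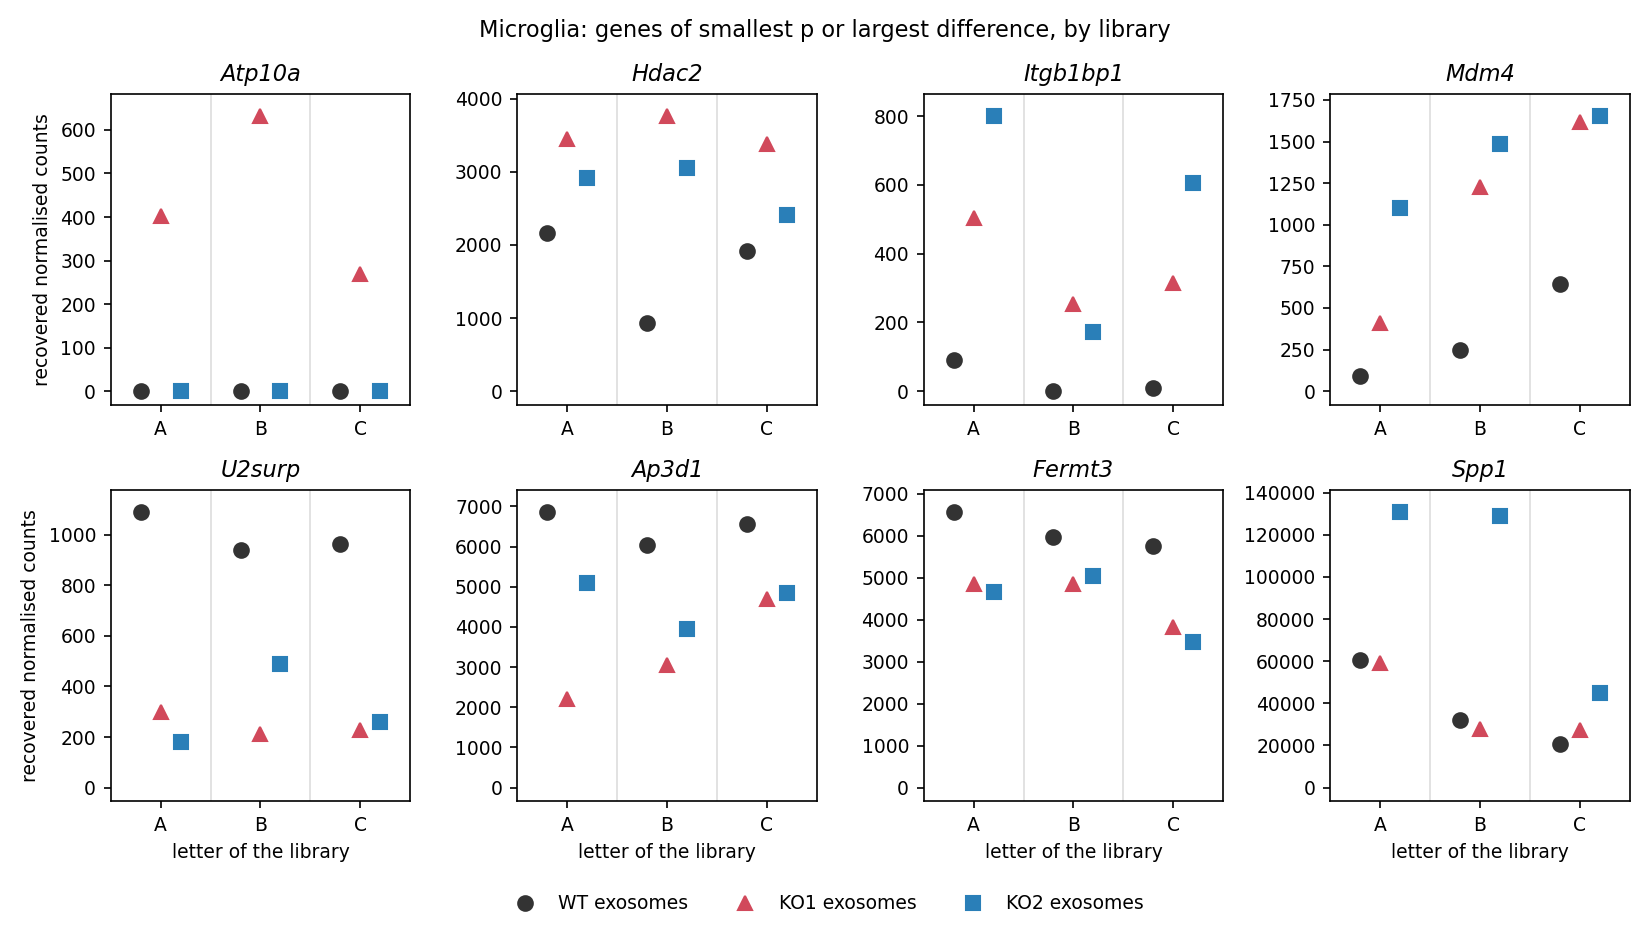
Normalised counts (vertical, linear axis from 0) of 8 genes in each library, by letter (horizontal); circles are WT, triangles KO1 and squares KO2 exosomes. Hdac2 and Itgb1bp1 are higher and U2surp, Ap3d1 and Fermt3 lower in all 6 knockout libraries than in all 3 WT libraries, Atp10a is above 0 only in KO1 libraries, and Spp1 is highest in KO2 A and KO2 B.

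Chemokines had the lowest median of 33 gene lists. Of 17 chemokines tested, 12 were lower and 5 higher in the knockout mean and none passed the test, with a median difference of -0.17 beside 0.0042 over all genes. All 6 knockout libraries were below the WT library of their letter in 5 of the 17. The share was 2.71% of all genes and 3.57% of those with a mean of at least 100 counts. KO1 and KO2 share the WT library of a letter, so the 6 comparisons are not separate. Within letters the medians were -0.35 in A, -0.25 in B and 0 in C. In bulk libraries, fewer cells of a type and less RNA per cell cannot be told apart, here and in all results below.

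Cxcl2, which attracts neutrophils, had 121285, 152425 and 29144 counts after WT exosomes, 110861, 86474 and 23768 after KO1 exosomes and 56400, 94818 and 13602 after KO2 exosomes. The C libraries were lowest in each group, the groups overlapped, and within each letter both knockout libraries were below WT, at 0.465 to 0.914 of it. The difference was -0.78. Its interval was -2.50 to 0.94 without the letter and -1.27 to -0.29 with the letter as a block, where limma's unadjusted p was 0.00529 and the adjusted p 0.976. In the PBS libraries A and B Cxcl2 stood at 16623 and 36895 counts, below every A and B library given exosomes.

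Ccl5, which attracts T cells, had 138559, 51604 and 6039 counts in WT, 97792, 38344 and 2599 in KO1 and 80853, 41897 and 3700 in KO2 libraries. The order of the letters was the same in each group, and the knockout libraries had 0.43 to 0.812 of the WT count of their letter. The difference was -0.62 (-3.33 to 2.10; with the block -1.05 to -0.18; limma, adjusted p 0.976 with the block), and PBS A and PBS B had 10740 and 8219 counts. Ccl5 was named in part for its same direction in all within-letter comparisons, so the interval with the block gives no separate support. The block intervals of Cxcl10, Ptgs2, Acod1 and Bst2 below are likewise unadjusted, and no gene passed after adjustment with the block.

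Cxcl10, an interferon-induced attractant of T cells, had 11245, 6332 and 1996 counts in WT, 7856, 3761 and 755 in KO1 and 5898, 5748 and 364 in KO2 libraries. Every knockout library was below the WT library of its letter, from 0.908 of it in KO2 B to 0.182 in KO2 C. The difference was -0.54 (-1.63 to 0.56; with the block -0.89 to -0.18), and PBS A and PBS B had 1115 and 1322 counts. Ccl3 did not share this order: KO2 C, at 76649 counts, was above WT C at 74015. Cxcl3, one of the chemokines with a higher knockout mean, had 8049, 18709 and 1330 counts in WT libraries. It had 13048, 18209 and 1999 in KO1 and 15509, 15802 and 1265 in KO2 libraries. Its knockout libraries were above WT in A, below it in B and on both sides in C, with a difference of 0.24.

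The 2 promoters printed here are those of Cxcl2 and Cxcl10, shown because both chemokines were lower within every letter and both windows hold motif matches, as 250 bases before the start of the gene, 5′ to 3′ on the gene's strand, from RefSeq on GRCm38.p6. Capitals mark matches to the NF-kB consensus in both and, as the first match in Cxcl10, to the core of the interferon-stimulated response element, which reads GAAA, any 2 bases and GAAA. Both motifs were searched on both strands, and the 2 NF-kB matches of Cxcl2 overlap.
Cxcl2, chr5:90903649-90903898, plus strand: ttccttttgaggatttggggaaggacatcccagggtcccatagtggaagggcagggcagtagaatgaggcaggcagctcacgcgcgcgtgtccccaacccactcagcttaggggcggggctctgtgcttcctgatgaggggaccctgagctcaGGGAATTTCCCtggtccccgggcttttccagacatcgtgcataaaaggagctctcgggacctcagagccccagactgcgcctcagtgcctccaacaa
Cxcl10, chr5:92348890-92349139, minus strand: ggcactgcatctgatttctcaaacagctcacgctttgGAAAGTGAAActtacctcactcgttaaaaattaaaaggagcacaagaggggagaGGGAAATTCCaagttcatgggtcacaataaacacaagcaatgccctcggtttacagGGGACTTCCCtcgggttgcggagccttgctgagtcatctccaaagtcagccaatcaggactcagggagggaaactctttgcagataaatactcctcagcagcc

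In Cxcl2 the matches start 97 and 96 bases before the gene, and in Cxcl10 the interferon element starts 213 and the NF-kB matches start 159 and 103 bases before it. Of the chemokines tested, 12 had a promoter in the table, and 5 of these (41.7%) held an NF-kB match, as did 3.9% of all 32851 promoters. An interferon element was found in 1 of the 12 (8.33%) and in 2.98% of all promoters. The same windows of Ptgs2 and Acod1, described next and also lower within every letter, held 0 matches to either motif and are not printed. A match in this window is a description of the sequence and does not show binding.

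Ptgs2, the inducible enzyme of prostaglandin synthesis, had 28435, 47608 and 4286 counts in WT, 21972, 25986 and 3983 in KO1 and 19818, 19356 and 3816 in KO2 libraries. All 6 knockout libraries were below WT within letters, by little in C, where they had 0.89 and 0.929 of WT. The difference was -0.57 (-2.19 to 1.05; with the block -0.98 to -0.17).

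Acod1, which makes itaconate in activated macrophages, had 26036, 19310 and 629 counts in WT, 19739, 11211 and 514 in KO1 and 13658, 11626 and 368 in KO2 libraries. It too was lower within every letter, at 0.525 to 0.817 of WT, while the C libraries lay far below all others. The difference was -0.50 (-2.50 to 1.50; with the block -0.81 to -0.20). PBS A and PBS B had 2780 and 1321 counts, well under the A and B libraries given any exosomes.

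The cytokines as a list did not stand apart. Of 15 tested, 7 were higher and 8 lower, with a median of -0.018. Tnf had 13346, 13458 and 4615 counts in WT, 8948, 8252 and 4466 in KO1 and 9569, 7332 and 4893 in KO2 libraries. It was lower in all A and B knockout libraries and in KO1 C, and KO2 C was above WT C. Its difference was -0.40, with an unadjusted p of 0.214, or 0.0203 with the letter as a block (-0.72 to -0.076; limma, adjusted p 0.976). Il1b, interleukin 1 beta, had 14906, 7689 and 663 counts in WT, 11537, 6437 and 592 in KO1 and 7856, 4510 and 280 in KO2 libraries. It was the only one of the 15 with all knockout libraries below the WT library of their letter, as were 2.71% of all genes, and its interval held 0 also with the block (-0.79 to 0.026).

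NF-kB subunits, inhibitors and feedback genes were lower in 13 and higher in 4 of 17, with a median of -0.11 (A -0.12, B -0.10, C 0.038), and none of the 17 had all 6 knockout libraries on one side of WT within letters. Sod2, a mitochondrial superoxide dismutase that NF-kB induces, had 22944, 21815 and 6222 counts in WT, 17530, 18968 and 6736 in KO1 and 12933, 11768 and 4894 in KO2 libraries. Sod2 was lower in 5 of 6, KO1 C being the exception. Relb, an NF-kB subunit, went the other way, with 766, 1831 and 345 counts in WT libraries. It had 1660, 2213 and 1041 in KO1 and 1725, 1587 and 801 in KO2 libraries. Only KO2 B was below the WT library of its letter in Relb. Inflammasome genes were lower in 12 and higher in 4 of 16 (median -0.10), a list that shares interleukin 1 genes with the cytokines.

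**Figure D4:**
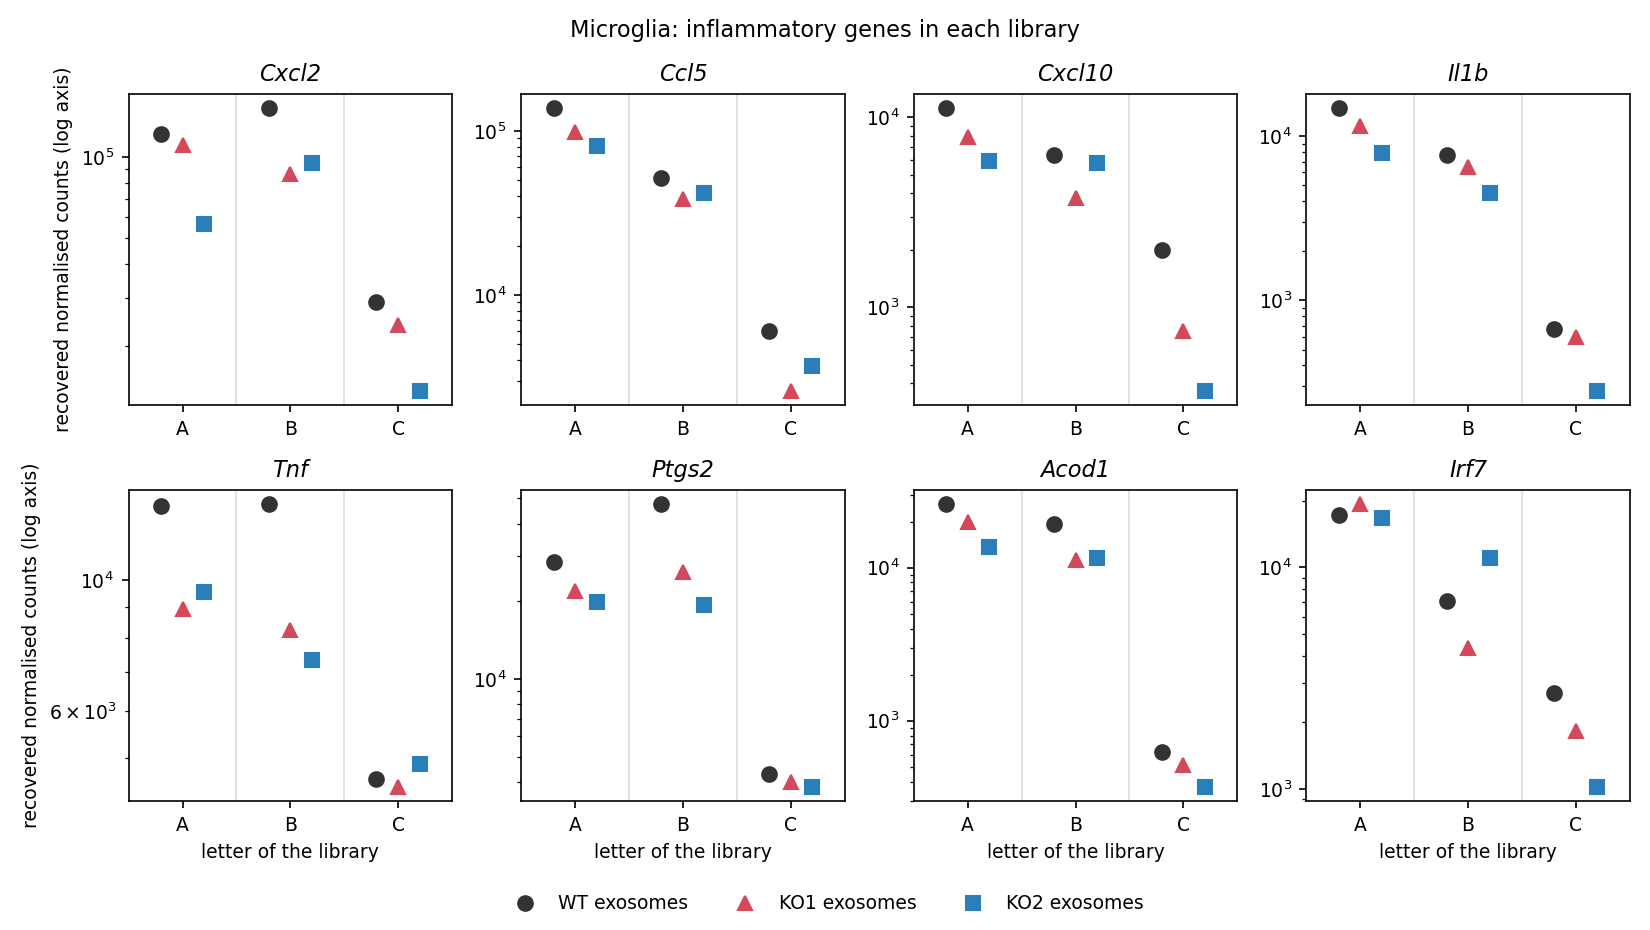
Normalised counts (vertical, log axis) of 8 inflammatory genes in each library, by letter (horizontal); circles are WT, triangles KO1 and squares KO2 exosomes. In Cxcl2, Ccl5, Cxcl10, Il1b, Ptgs2 and Acod1 both knockout libraries lie below WT within each letter, the C libraries are lowest throughout, and Tnf in C and Irf7 in A and B do not keep that order.

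Interferon genes differed less evenly. In the type I interferon list 23 of 28 genes were lower and 5 higher, with a median of -0.079, but the medians within letters were -0.13 in A, 0.054 in B and -0.26 in C. Against WT the median was -0.16 for KO1 and -0.055 for KO2, which share their WT libraries. Bst2, tetherin, which holds enveloped particles at the cell surface, had 18965, 8696 and 6610 counts in WT, 13645, 5939 and 5458 in KO1 and 14550, 8044 and 4546 in KO2 libraries. It was the only one of the 28 below WT in all 6 within-letter comparisons, a pattern that 2.71% of all genes had, with a difference of -0.34 (-1.15 to 0.48; with the block -0.65 to -0.033). Isg15, a ubiquitin-like modifier, had 24919, 11066 and 4284 counts in WT, 22386, 7275 and 2870 in KO1 and 12459, 15016 and 3610 in KO2 libraries, with KO2 B above WT B. Irf7, the factor that amplifies the interferon response, is named for the plot of inflammatory genes and was chosen after its values were seen; it was lower than WT in 4 of 6 within-letter comparisons, and its difference was -0.13.

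The summed level of the 28 genes showed the same unevenness: 253312, 91443 and 39184 counts in WT, 236707, 66880 and 26726 in KO1 and 192243, 137610 and 27260 in KO2 libraries. Only KO2 B was above the WT library of its letter. KO2 B was also the library with 10509 counts of choroid plexus markers, and a link between the 2 sums was not tested. PBS A had 5752 counts of choroid plexus markers and an interferon sum of 40213. The promoters of the 22 members in the table held an interferon element in 9 cases (40.9%), against 2.98% of all promoters.

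Antigen presentation genes were close to WT. In class I presentation 14 of 21 genes were lower (median -0.055) and in class II presentation 6 of 14 (median 0.014). Tapbp, tapasin, which loads peptide onto class I, had 25729, 18118 and 11597 counts in WT, 20034, 16997 and 10359 in KO1 and 16472, 15014 and 10530 in KO2 libraries, lower within every letter. Its interval, -0.85 to 0.30, held 0. Gbp2b, an interferon-inducible GTPase, had 2319, 231 and 157 counts in WT, 333, 0 and 0 in KO1 and 0, 425 and 70 in KO2 libraries, with KO2 B above WT B. The 15 genes of its list had a median of -0.062.

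Genes that define microglial states gave no common direction. The 23 homeostatic genes had 11 higher and 11 lower and a median of 0, and their summed level in each group, 269292 to 390090 counts in WT and 246224 to 400592 in knockout libraries, overlapped fully. P2ry6, a nucleotide receptor that drives phagocytosis, had 1866, 593 and 417 counts in WT, 409, 372 and 526 in KO1 and 790, 468 and 566 in KO2 libraries. It was lower in A and B and higher in C.

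The 26 disease-associated genes had 15 higher and 11 lower, with a median of 0.024, and summed to 2630465 to 3174418 counts in WT and 2689611 to 3306836 in knockout libraries. Lpl, lipoprotein lipase, had 0.99, 5.52 and 1005 counts in WT, 2.67, 444 and 1123 in KO1 and 622, 255 and 2020 in KO2 libraries. It was higher within every letter, yet WT C lay above 4 of the 6 knockout libraries. Its difference was 0.35 (-0.22 to 0.91).

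Lysosomal and phagocytic genes were higher in 14 and lower in 11 of 25 (median 0.034), and their summed level was within a narrow range, 438874 to 484594 counts in WT and 449279 to 498413 in knockout libraries. Endocytic and tetraspanin genes were lower in 17 and higher in 7 of 24 (median -0.077). Cd53, a tetraspanin of white blood cells, was on the other side, with 25735, 31838 and 30746 counts in WT, 34054, 37728 and 34639 in KO1 and 28272, 35448 and 34393 in KO2 libraries. It was higher within every letter, and KO2 A lay among the WT libraries.

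Of 22 motility, adhesion and integrin genes, 2 had an unadjusted p under 0.05, as did 3.13% of all genes, and none passed after adjustment. Itgav, the alpha v subunit that activates latent TGF-beta, had 260, 1556 and 619 counts in WT, 2329, 1906 and 1058 in KO1 and 2091, 2380 and 1620 in KO2 libraries. It was higher within every letter, with KO1 C below WT B, and the difference was 0.49 (0.14 to 0.84). Itga6, the alpha subunit of a laminin receptor, had 375, 429 and 310 counts in WT, 624, 556 and 721 in KO1 and 986, 1115 and 1265 in KO2 libraries. The groups did not overlap, KO2 libraries were the highest, and the knockout mean was 2.37 times the WT mean, with a difference of 0.28 (0.047 to 0.52). Over the whole list of 22, 10 were higher and 12 lower (median -0.011).

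In the TGF-beta and BMP list 14 of 21 genes were lower (median -0.041). Acvrl1, a type I receptor for BMP ligands, had 2183, 2218 and 1449 counts in WT, 1137, 1695 and 904 in KO1 and 713, 1172 and 1000 in KO2 libraries. It was lower within every letter, with KO1 B above WT C, and the difference was -0.34 (-0.60 to -0.085). Bhlhe41, a repressor expressed in resident macrophages, had 10460, 11311 and 8366 counts in WT, 13790, 12661 and 13198 in KO1 and 12277, 14398 and 10816 in KO2 libraries, higher within every letter, with KO2 C below WT B.

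Hyaluronan genes were of interest because of the title of the series. Cemip itself (chr7:83932857-84086693) was listed at 0 in all 11 microglia libraries but KO1 C, with 5.45 counts. Of 14 hyaluronan genes tested, 6 were higher, 6 lower and 2 at 0 in difference, with a median of 0. Cemip2, a cell-surface hyaluronidase, had 851, 1071 and 246 counts in WT, 0, 236 and 92.5 in KO1 and 0, 0 and 423 in KO2 libraries. It was at or near the floor in several knockout libraries, but KO2 C was above WT C, and the difference was -0.64 (-1.19 to -0.090). Stab1, a scavenger receptor that takes up hyaluronan, had 2491, 3893 and 2105 counts in WT, 2444, 3139 and 1479 in KO1 and 2192, 2402 and 1935 in KO2 libraries, lower within every letter, with KO1 A near WT A. Cd44, the main hyaluronan receptor, differed by 0.030 and is named after its values were seen.

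Most hypoxia and glycolysis genes were higher after knockout exosomes, none past the test. Of the 27 tested 19 were higher and 8 lower, with a median of 0.054 and medians of 0.10, 0.019 and 0.043 within letters A, B and C. Pgk1, a glycolytic enzyme, had 10366, 10278 and 9710 counts in WT, 11496, 10649 and 11474 in KO1 and 11406, 12847 and 11780 in KO2 libraries. All knockout libraries were above all WT libraries, the knockout mean was 1.15 times the WT mean, and the interval of the difference, -0.039 to 0.40, held 0. Oxidative phosphorylation genes were higher in 20 and lower in 12 of 32 (median 0.033), and ribosomal protein genes were split 19 to 19 (median 0.0019).

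Stress and growth lists were as small in size. Heat shock chaperones were lower in 12 and higher in 5 of 17 (median -0.10), with a median of 0.15 in the other direction within letter C. Immediate early genes, which tissue digestion can induce, were lower in 15 and higher in 9 of 24 (median -0.043). Cell cycle genes were higher in 19 and lower in 11 of 30, the highest median of the 33 lists at 0.065. Casp8, the initiator caspase of death receptors, had 2218, 2319 and 2435 counts in WT, 2136, 1176 and 1474 in KO1 and 2000, 1935 and 1541 in KO2 libraries. All knockout libraries were below all WT libraries, with KO1 A close to WT A. Keap1, which marks the oxidative stress factor NRF2 for degradation, had 3744, 4036 and 3516 counts in WT, 2776, 2232 and 2568 in KO1 and 3734, 2079 and 2902 in KO2 libraries, lower within every letter, with KO2 A at nearly the level of WT A.

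**Figure D5:**
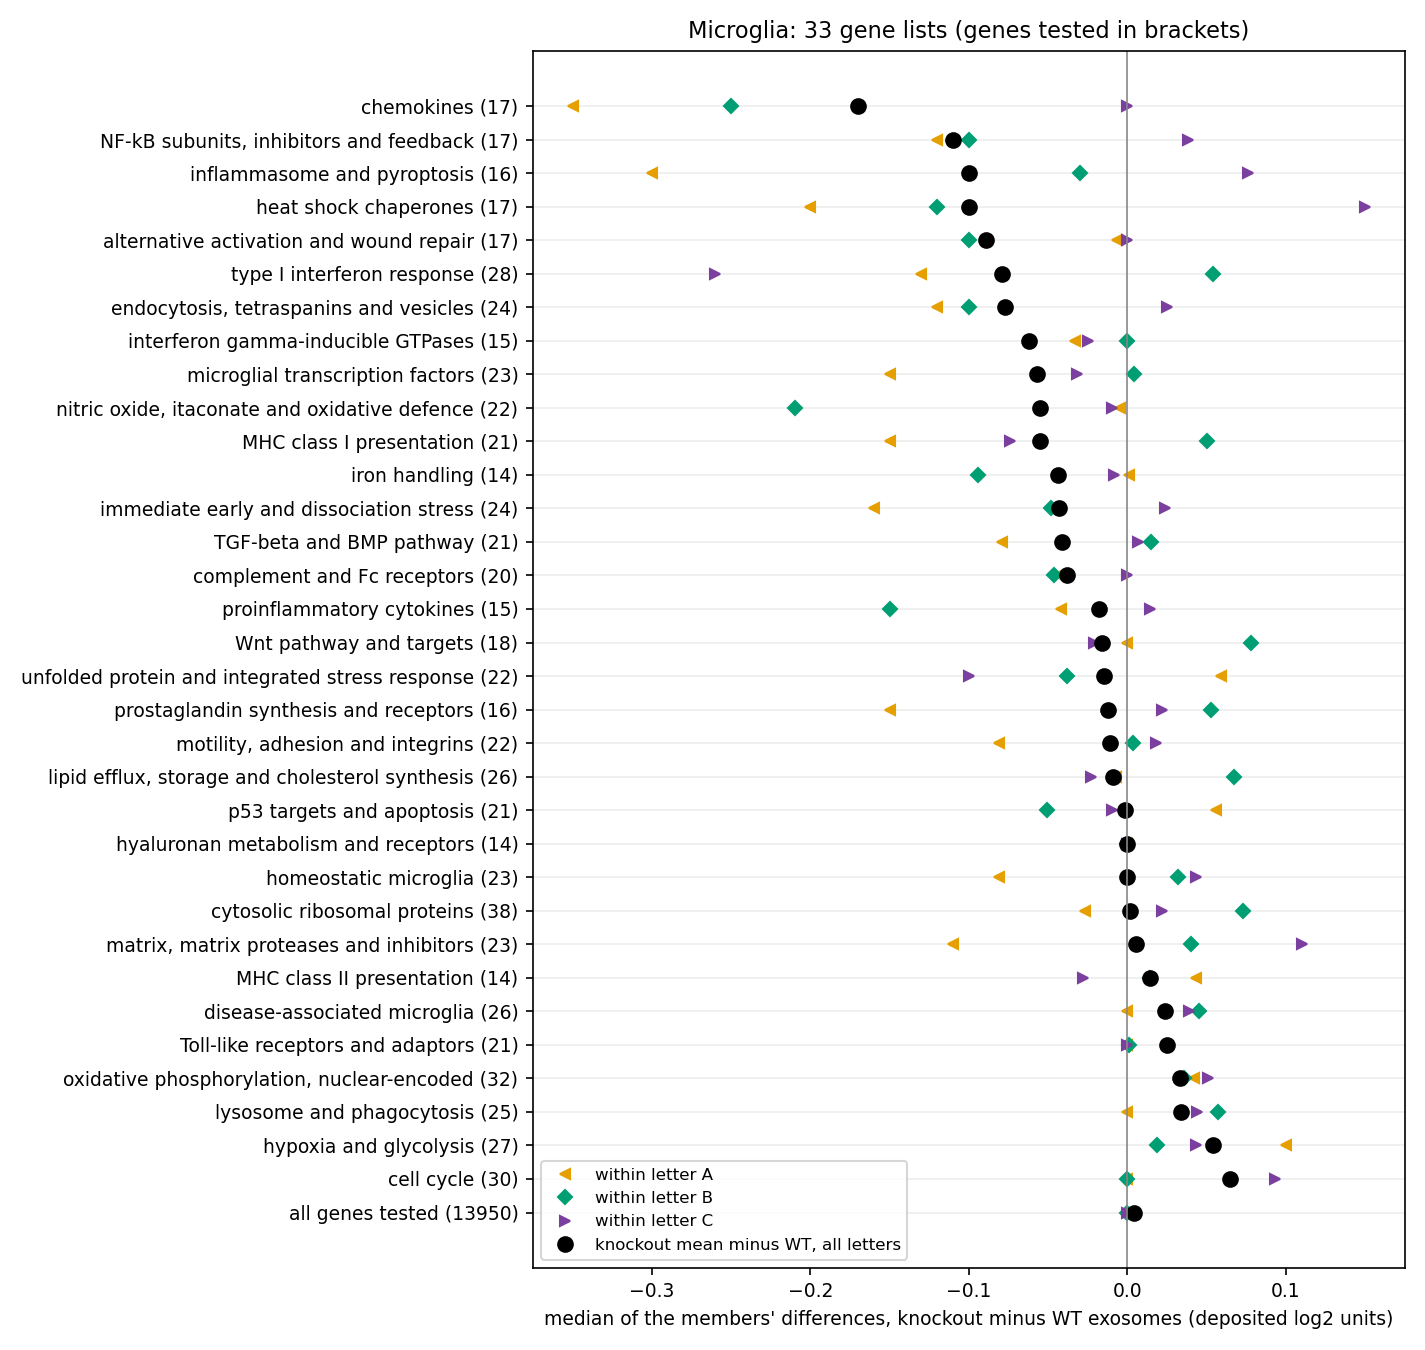
Median difference of the members of 33 gene lists and of all genes tested, knockout minus WT exosomes (horizontal, deposited log2 units); circles are the overall difference and the other symbols the median within letter A, B and C. The overall medians run from -0.17 for chemokines to 0.065 for the cell cycle, and for most lists the 3 letters lie on both sides of 0.

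The 33 lists thus had medians from -0.17 to 0.065, of which 22 were below 0 and 9 above, and no member of any list passed the test. The lists share genes and hold 677 distinct genes in all. The medians of the chemokine, NF-kB and inflammasome lists lay below 0 in letters A and B and at or above 0 in C, the letter in which the chemokines (median -0.94 against A and B) and the NF-kB genes (-0.26) were themselves low. With the letters left out of the fit, the sign of some of these genes turned with 1 library: without WT A the difference was 0.45 for Ccl5, 0.22 for Il1b and 0.17 for Acod1, and without WT B it was 0.11 for Ptgs2.

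The 2 knockouts were also set against WT one at a time, and these comparisons share the WT libraries. KO1 against WT gave 1 gene past the adjusted threshold (0.00717% of 13950) and 523 at an unadjusted p under 0.05 (3.75%). KO2 against WT gave 0 genes (0%), with a lowest adjusted p of 0.38, and 430 at an unadjusted p under 0.05 (3.08%). The contrast between KO1 and KO2 gave 1 gene (0.00717%) and 508 at an unadjusted p under 0.05 (3.64%). With the letter as a block no gene passed in any of the 3 contrasts (0%), and the counts at an unadjusted p under 0.05 were 625 (4.48%), 526 (3.77%) and 601 (4.31%). These counts moved with single libraries, to as many as 15 genes for KO1 without KO1 A, 7 for KO2 without PBS A and 13 between KO1 and KO2 without KO2 A. Without all C libraries they were 34 (0.244%), 44 (0.315%) and 38 (0.272%), and 0 (0%) with the letter as a block.

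The single gene was Atp10a, which encodes a phospholipid flippase of the plasma membrane (gene 11982, chr7:58656142-58830244). It had 403, 633 and 270 counts in KO1 libraries and was listed at 0 in all 3 WT, all 3 KO2 and both PBS libraries. The difference was 0.84 between KO1 and WT and 0.84 between KO1 and KO2, each with an adjusted p of 0.021 in limma. With the letter as a block neither passed, each with an adjusted p of 0.138. As the WT, KO2 and PBS libraries were all at the floor, the gene's own spread came from the KO1 libraries alone, which limits these tests. In the authors' deposited table of a likelihood ratio test, which rests on the same libraries, Atp10a had an adjusted p of 7.81e-05. KO1 A, one of the 3 libraries with Atp10a, was the library with 1118 counts of pericyte markers, and the part of such cells was not tested.

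Spp1, osteopontin, a secreted phosphoprotein of activated macrophages, had a higher level after KO2 exosomes than after WT or KO1 exosomes, without passing the adjusted test. It had 60655, 32188 and 20566 counts in WT, 59084, 27877 and 27214 in KO1 and 130848, 128689 and 44896 in KO2 libraries, and 272521 and 57849 in PBS A and PBS B. KO2 libraries were above the WT and KO1 libraries within each letter and below PBS A in letter A, KO1 libraries lay near WT, and KO2 C was below WT A. The difference was 1.60 for KO2 and 0.051 for KO1 against WT. The contrast between KO1 and KO2 had an unadjusted p of 0.0492, or 0.00331 with the letter as a block, and did not pass after adjustment.

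Some genes were listed at 0 in whole groups. In all, 5 genes, a share of 0.0358%, were at the floor in all WT and above it in all 6 knockout libraries, and 3 genes (0.0215%) the other way round. Tdg, a DNA repair glycosylase, had 29, 20.5 and 64.4 counts in KO1 and 20.8, 100 and 85 in KO2 libraries, and 58.6 and 18.1 in the PBS libraries, so that only the WT exosome group was at 0. It had the lowest adjusted p of the main contrast, 0.553, a value it shared with Atf5, a stress-response transcription factor with 73.3, 3.42 and 62.9 counts in WT and 0 in all knockout and PBS libraries. Stat5a, a cytokine signal transducer, had 97.6, 131 and 104 counts in WT, 22.6, 0 and 0 in KO1 and 0 in all KO2 libraries. Herc3, a ubiquitin ligase, was listed at 0 in all WT and KO1 libraries and had 120, 139 and 64.6 counts in KO2 and 186 and 86.5 in PBS libraries (limma, KO1 against KO2, adjusted p = 0.19). These low levels lie in the squeezed range of the transform.

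The authors' deposited table of a likelihood ratio test holds 238 microglia genes, with adjusted p-values up to 0.0498, and does not state which groups were contrasted. Because the list was chosen on these libraries, its counts are a description. The knockout mean was higher in 85 of the 238 and lower in 153, with a median difference of -0.085. All knockout libraries lay above all WT libraries in 7 of them and below in 9, beside 0.717% and 0.753% of all genes. The within-letter direction was the same in all 6 comparisons for 20 higher and 35 lower genes, beside 2.45% and 2.71% of all genes. In the main contrast 37 had an unadjusted p under 0.05, beside 3.13% of all genes, and none passed after adjustment. U2surp was among them, with an adjusted p of 0.0155 in the authors' deposited table.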

How the data were processed

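RNA from sorted mouse microglia was sequenced by the authors. The submitters' processing notes name FastQC 0.11.7, Trimmomatic 0.38, Salmon 0.10.0, DESeq2 1.18.1 and the build GRCm38.p6, without their settings. The authors deposited log2 values after a variance-stabilising transform for 11 microglia libraries (20555 genes, 20537 with a symbol, floor 9.8893), in which 13950 genes vary. The authors' deposited table of a likelihood ratio test also gives mean normalised values (a signal per gene), a test score and p-values for 238 genes. Neither labels nor headers say which contrast that table holds. All value columns matched a library (0 unmatched).

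Groups came from the labels. limma 3.58.1 in R 4.3.3 gave the differences in log2 units as deposited, from 4 group means over 11 libraries, an intensity trend and Benjamini-Hochberg adjustment over all 13950 genes. A curve of 16 knots through the authors' mean signal of the listed genes turned log2 values back into normalised counts for description (largest error on held-out genes 0.394%, lowest mean in that list 54.3). The fitting procedure was tested on simulated data with independent libraries, no letter effect and no values heaped at the floor. That test does not cover these features of the real libraries. Library measures and figures used Python 3.11.15, SciPy 1.17.1 and pandas 2.3.3.

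The letters were treated as pairing the libraries, because libraries of 1 letter deviated together from their group means in all 9 pairs (correlation 0.15 to 0.55; different letters -0.44 to 0.13). The main fit has no block and a second fit has the letter as a block, which leaves the differences as they are and alters their error.

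Genes were named by rule: the 12 of smallest p in each direction (mean of at least 100 counts), the 4 of largest difference in each list, up to 5 per direction with 6 of 6 within-letter differences alike, the smallest p of each knockout, and the sorted proteins with Cemip. Cd44, Irf7 and the genes called without C libraries were chosen after their values were seen. The members and lists were chosen with earlier results of these data known. The alternatives were filters, other fits and scales, each library left out and all C libraries left out. Read depth is unknown, so no counting interval is given.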

Additional observations from a re-analysis of the deposited data

Results flagged for a closer look

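Atp10a was the only gene of 13950 for which the contrast between KO1 and KO2 passed limma's adjusted threshold, with a difference of 0.84 (deposited log2 units). It was above 0 in 3 of 3 KO1 libraries and listed at 0 in the 6 WT and KO2 libraries and in both PBS libraries. The adjusted p was 0.021, and 0.138 with the letter as a block.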

How the results depend on the processing

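Of 1197 single-gene differences under the alternatives, 1156 kept their direction and their side of the adjusted threshold, 18 changed sign, 18 newly passed and 5 no longer passed. No gene passed between knockout mean and WT under any filter, scale or fit that kept all WT and knockout libraries, the letter block included (0 of 13950, lowest adjusted p 0.932). Leaving out 1 library gave 0 to 9 genes, and leaving out the C libraries, a setting chosen after seeing the data, gave 29.

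The single gene of KO1 against WT, and of KO1 against KO2, was Atp10a. The filter of 1 above the floor left it out before any test, as its mean lay lower, and gave 0 genes. The number was also 0 with the replicate block, with robust empirical Bayes and with log2 of counts plus 1. It was 0 too with the settings chosen after seeing the data that include the block (log2 of counts plus 50 with a mean of at least 100 counts, or C libraries left out). Without the PBS libraries the counts were 3 for KO1, 7 for KO2 and 5 for KO1 against KO2, and without the C libraries 34, 44 and 38. Leaving out 1 library gave 1 to 15, 0 to 7 and 1 to 13 genes. The cause was not tested. With all libraries kept, the block, which pairs libraries by letter, changed no other call. It also took the calls made without the C libraries to 0. Where an arm kept 2 libraries, their spread was taken as that of the other groups.

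Leaving out 1 library turned the sign of 9 unpaired differences, whose values ran from -1.63 to 0.17 for Acod1, -0.63 to 0.07 for Bst2, -1.91 to 0.45 for Ccl5, -0.11 to 0.17 for Cd44, -1.16 to 0.22 for Il1b, -0.65 to 0.42 for Irf7, -0.87 to 0.27 for Isg15, -0.33 to 0.0086 for P2ry6 and -1.53 to 0.11 for Ptgs2. Irf7 was 0.037 without the C libraries, with or without the block. Of 726 list medians 640 moved by less than their spread over the 6 within-letter comparisons and 86 by more, and 105 differed in sign from the reported value, 0 counted as a sign of its own. Read depth is unknown, and the squeezed scale limits what low genes can show.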

Other observations

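The remaining gene lists gave small differences, with no gene past the test. Complement and Fc receptor genes were higher in 8 and lower in 12 of 20 (median -0.038), genes of alternative activation in 8 and 9 of 17 (-0.089), nitric oxide, itaconate and oxidative defence genes in 8 and 14 of 22 (-0.055) and microglial transcription factors in 9 and 14 of 23 (-0.057). Lipid and cholesterol genes were split 13 to 13 (-0.0091), Toll-like receptor genes were higher in 12 and lower in 9 of 21 (0.025) and matrix genes in 12 and 11 of 23 (0.0055). Iron genes were higher in 5 and lower in 9 of 14 (-0.044), Wnt genes in 8 and 10 of 18 (-0.016), prostaglandin genes in 7 and 9 of 16 (-0.012), unfolded protein response genes in 10 and 12 of 22 (-0.015) and p53 genes in 10 and 11 of 21 (-0.0018).

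Among these lists, Hmgcs1, an early enzyme of cholesterol synthesis, had 1494, 1610 and 1507 counts in WT, 674, 827 and 1583 in KO1 and 937, 434 and 669 in KO2 libraries. It was lower in 5 of 6 within-letter comparisons, KO1 C being the exception, and its difference was -0.32. Catalase, Cat, had 3806, 6730 and 7788 counts in WT, 7775, 6681 and 10588 in KO1 and 7486, 6410 and 8425 in KO2 libraries, higher in A and C and slightly lower in B, with a difference of 0.33.

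The 29 genes that passed when the C libraries were left out were mostly scarce: 4 of them had a mean of at least 100 counts, and the highest mean was 236. Cav1, the coat protein of caveolae, had 165 and 104 counts in WT A and WT B and was listed at 0 in WT C, in all 6 knockout libraries and in both PBS libraries. Cspg4, a proteoglycan of pericytes and glial precursors, was listed at 0 in all WT and PBS libraries and in KO1 C and KO2 C, and had 262 and 279 counts in KO1 A and KO1 B and 276 and 189 in KO2 A and KO2 B. Dicer1, the RNase that makes microRNAs, was listed at 0 in WT A and WT B but had 338 counts in WT C, 183, 207 and 450 in KO1 and 115, 82.6 and 386 in KO2 libraries. With 2 WT libraries left, these genes rest on a pair of values listed at 0 or above it.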
